A study of Homo sapiens with 6 samples.

Results

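A set of 9 named genes of the epithelial cytoskeleton and of cell-cell adhesion were followed in the human breast cancer line CAL51 after knockout of TREX1. They were the keratins KRT8, KRT18, KRT19 and KRT7, the tight junction gene CLDN1, the surface adhesion gene EPCAM, the cadherins CDH1 and CDH2, and the filament gene VIM. They were taken by symbol, and 9 of the 14788 genes in the deposited expression table carried those symbols, so that each of the 9 had a row. Polyadenylated RNA was sequenced from 3 groups of 2 libraries each. KO-1 and KO-2 were CAL51 cells transduced with a CRISPR v2 lentivirus, each with a different guide RNA against TREX1, an exonuclease that degrades cytosolic DNA. The third group, control, was CAL51 that the labels do not describe further, and the sources used here do not say whether it carried a vector, a guide or Cas9. All 6 libraries shared the parental line, labelled as triple-negative breast cancer, and no drug is named for any of them.

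Keratins are the intermediate filaments of epithelial cells and assemble as pairs of a type I and a type II chain. KRT8 and KRT18 form the pair of simple epithelia, KRT19 is a further type I keratin of luminal and ductal epithelium, and KRT7 is a type II keratin of glands and ducts. CLDN1 encodes a claudin, a membrane protein that seals tight junctions, and EPCAM encodes an epithelial cell adhesion protein. CDH1 encodes E-cadherin, which joins epithelial cells at adherens junctions. CDH2 encodes N-cadherin and VIM encodes vimentin, and both are commonly read as mesenchymal counterparts of E-cadherin and the keratins.

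The summed reads of a library lay between 13222933 and 25785055, and KO-2 replicate 1 was the shallowest. The SD of the log2 difference between the 2 libraries of a group was 0.276 for KO-1, 0.387 for KO-2 and 0.239 for control. TREX1 itself was not analysed here, since none of the gene symbols is TREX1, and the group labels stand without a check on the gene that was targeted. A text deposited with the data speaks of several knockout clones without tying a library to a clone, and nothing states that the 2 libraries of a group were separate cultures. The p-values below therefore rest on a spread among libraries that may be technical in origin, and a guide cannot be told apart from the clone or culture that carried it. In bulk RNA, fewer cells of a kind and less RNA per cell cannot be told apart either.

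Of the 9 genes, 6 rose in the TREX1 knockout libraries, namely KRT8, KRT18, KRT19, CLDN1, EPCAM and VIM, and 0 fell. The increases were modest, between 1.15-fold for EPCAM and 1.41-fold for CLDN1 for the mean of both guides. Below, a value for both guides is that mean against control, and its call need not hold in each guide. The mesenchymal filament gene VIM rose together with the keratins, at 1.29-fold. The difference for CDH1, 1.23-fold, and those for CDH2 and KRT7 did not pass the test. The test was limma on the deposited log2 CPM (the log2 of counts scaled to library size), with Benjamini-Hochberg adjustment over 13765 genes and a call at an adjusted p below 0.05. With that rule 6 of 9 was set against 29.6% of all genes tested, of which 14.6% were called higher and 14.9% lower. Among the 9 genes, 0 were also called lower with limma voom on recovered reads, and 0 had an unadjusted p under 0.05 in the lower direction. The median log2 fold change was 0.30 over the 9 genes, 0.30 also without KRT7, and -0.01 over all genes tested.

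**Figure D1:**
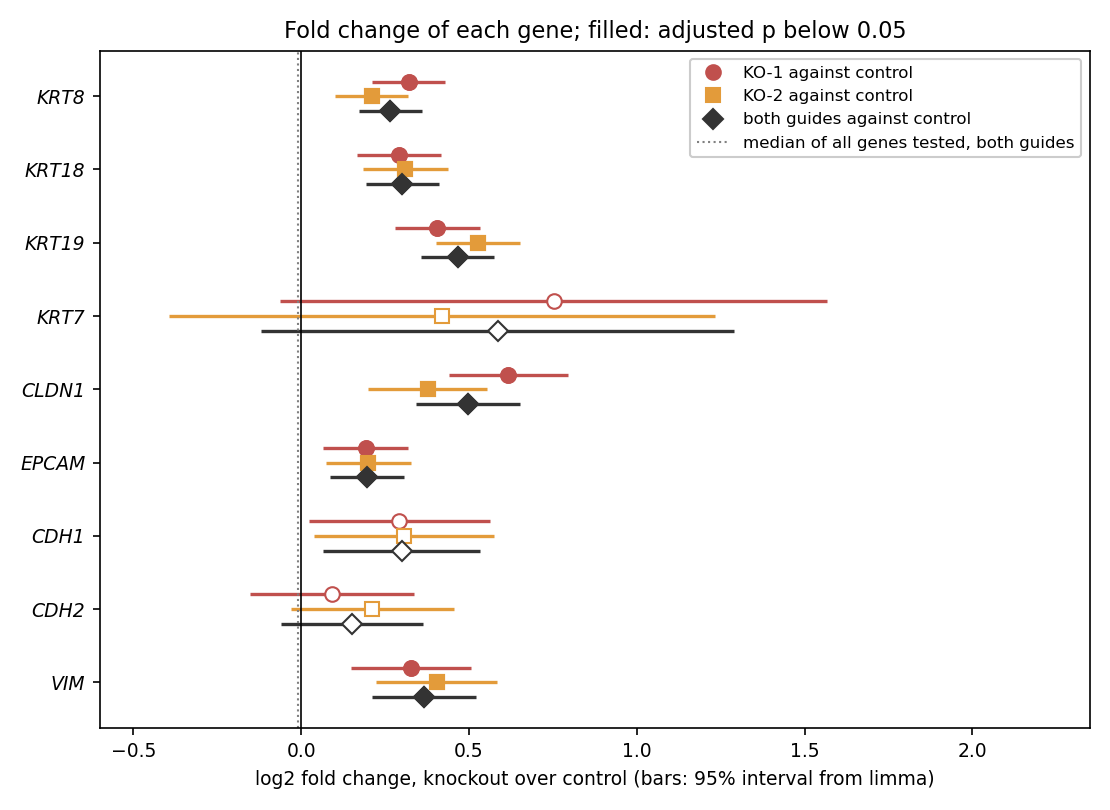
Log2 fold change of each gene over control, with the 95% interval from limma, for KO-1 (circles), KO-2 (squares) and the mean of both guides (diamonds). Filled symbols passed an adjusted p of 0.05. KRT8, KRT18, KRT19, CLDN1, EPCAM and VIM are filled in all 3 comparisons, while KRT7, CDH1 and CDH2 are open, and the intervals of KRT7 span the largest range.

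Each guide on its own gave the same 6 calls among the 9 genes. KO-1 called 6 of 9 genes higher and 0 lower, where 29.7% of all genes tested were called, 14.6% higher and 15.1% lower. KO-2 called 6 of 9 higher and 0 lower, where 16.9% of all genes tested were called, 8.73% higher and 8.19% lower. Both guides were set against the same 2 control libraries, so the 2 sets of calls share their reference and are not independent of each other. The median log2 fold change of the 9 genes was 0.32 in KO-1 and 0.31 in KO-2, against -0.00 and -0.02 over all genes tested. The calls of KO-2 depended on single control libraries, and this was not particular to the 9 genes. With either control library left out, fewer of the 9 genes and a smaller share of all genes were called in KO-2. Without a mean-variance trend in the fit, 0 of the 9 were called in KO-2 by limma, with KRT19 closest at an adjusted p of 0.054. That fit called 1.18% of all genes tested in KO-2.

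For most of these genes the level alone set the knockout libraries apart from the control libraries. For the 4 knockout libraries together, 8 of 9 genes lay above both control libraries without overlap, where 22.3% of all genes tested did so. In KO-1 this held for 8 of 9 genes (35.5% of all genes tested) and in KO-2 for 9 of 9 (28%), and 0 genes lay below control without overlap in any of the 3 comparisons, where 24%, 36.2% and 30.9% of all genes tested did. These counts include KRT7, which entered the test through its knockout libraries alone, and without it they were 7, 7 and 8 of 8. CDH2 was the gene whose groups overlapped, because KO-1 replicate 2 lay between the control libraries.

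**Figure D2:**
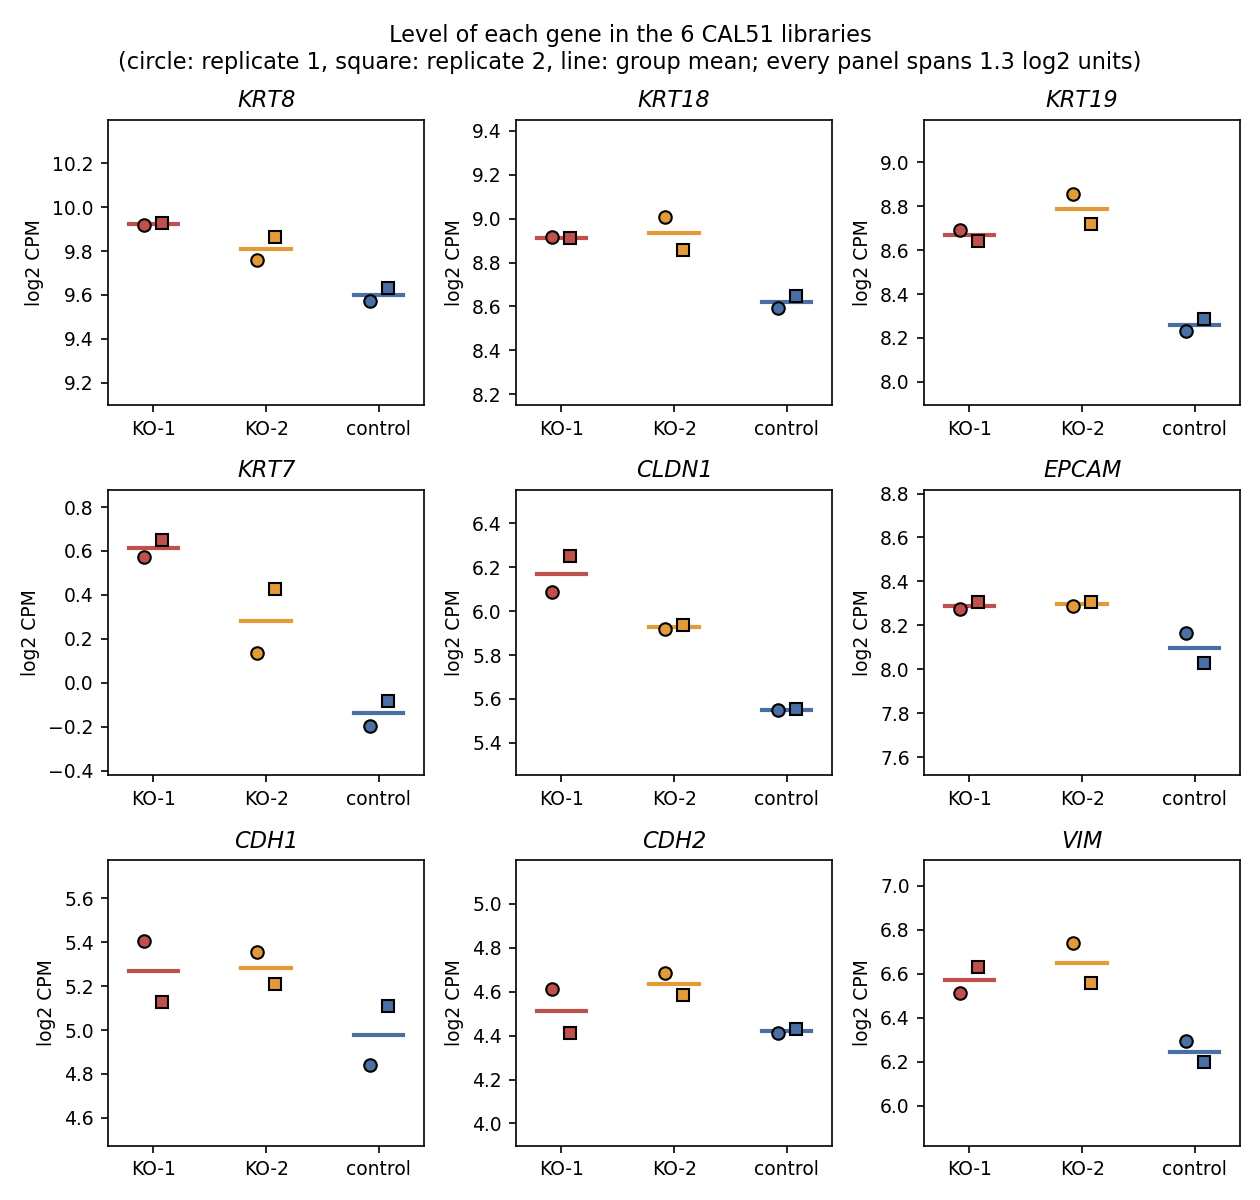
Log2 CPM of each gene in the 6 libraries, by group, with replicate 1 as a circle, replicate 2 as a square and the group mean as a line. Every panel spans 1.3 log2 units. For 8 genes all 4 knockout libraries lie above both control libraries, and for CDH2 the groups overlap.

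KRT8, the type II keratin of simple epithelia, was among the most abundant transcripts of the table, with rank 65 by mean level. It stood at 9.92 and 9.93 log2 CPM in KO-1 and 9.76 and 9.86 in KO-2, against 9.57 and 9.63 in control. All 4 knockout libraries were above both control libraries, and the KO-1 libraries were the highest. The means were 970 ± 4.03 CPM in KO-1 and 899 ± 45.4 CPM in KO-2, against 777 ± 23.6 CPM in control (SD, n = 2 each). The log2 fold change for both guides was 0.27 ± 0.04 (SE, limma adjusted p = 0.0012). It was 0.32 for KO-1 (limma adjusted p = 0.00089) and 0.21 for KO-2 (limma adjusted p = 0.016). The KO-2 call was lost without either control library (limma adjusted p = 0.19 without replicate 1 and 0.084 without replicate 2) and without either KO-1 library, which enter only the shared spread (0.057 each).

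KRT18, the type I partner of KRT8, stood at 8.91 and 8.91 log2 CPM in KO-1 and 9.01 and 8.86 in KO-2, against 8.60 and 8.65 in control. The groups did not overlap, and KO-2 replicate 1 was the highest library. The means were 482 ± 0.403 CPM in KO-1 and 489 ± 35.5 CPM in KO-2, against 394 ± 10.3 CPM in control (SD, n = 2 each). KRT18 rose by 0.30 ± 0.05 on the log2 scale for both guides (SE, limma adjusted p = 0.0013), by 0.29 in KO-1 (0.0033) and by 0.31 in KO-2 (0.0054). Without control replicate 1 the adjusted p was 0.053 in KO-1 and 0.089 in KO-2. In the GENCODE v29 annotation of hg38, KRT8 lies at chr12:52897187-52949954 on the minus strand and KRT18 at chr12:52948871-52952901 on the plus strand. They overlap by 1084 bases, with 525 exon bases shared on opposite strands. Which strand was counted is not stated in the sources used here, so reads from those shared bases cannot be assigned between them. Both keratins also have many annotated pseudogene copies, 50 named for KRT8 and 68 for KRT18, which the counting could have split reads with. Of these copies, 3 of KRT8 and 1 of KRT18 had a row.

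KRT19 had the smallest p of the 9 genes for both guides and in KO-2, and CLDN1 had it in KO-1. It stood at 8.69 and 8.64 log2 CPM in KO-1 and 8.85 and 8.72 in KO-2, against 8.23 and 8.29 in control. The gap between the lowest knockout library and the highest control library was wider than the spread inside any group. The means were 406 ± 9.73 CPM in KO-1 and 442 ± 29.2 CPM in KO-2, against 307 ± 8.08 CPM in control (SD, n = 2 each). KRT19 rose by 0.47 ± 0.05 on the log2 scale for both guides, a 1.38-fold increase (SE, limma adjusted p = 0.00012). The increase was 0.41 in KO-1 (limma adjusted p = 0.00055) and 0.53 in KO-2 (0.00032), and its call was kept with each library left out in turn in all 3 comparisons. KRT19 lies at chr17:41523617-41528308 on the minus strand, apart from KRT8, KRT18 and KRT7 on chromosome 12.

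KRT7, a type II keratin of glandular epithelium, was near the lower limit of the measurement, with between 13 and 27 reads in a library. It stood at 0.57 and 0.65 log2 CPM in KO-1 and 0.14 and 0.42 in KO-2, against -0.20 and -0.08 in control. Only its knockout libraries reached the log2 CPM of 0 that the test required in at least 2 libraries, so its presence among the tested genes already depended on their being higher. Its log2 fold change for both guides was 0.59 ± 0.32 (SE, limma adjusted p = 0.20), with a 95% interval from -0.12 to 1.29.

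Of 16 other keratins listed, 6 had a row and 5 were tested. For both guides 2 rose and 0 fell by limma, where 14.6% of all genes tested were called higher and 14.9% lower. At an unadjusted p under 0.05 the counts were also 2 and 0, and likewise with limma voom. In KO-1 2 rose and 0 fell by limma, with 1 lower at an unadjusted p under 0.05 and 0 lower with limma voom. In KO-2 0 of the 5 were called by limma or limma voom, with 2 higher and 0 lower at an unadjusted p under 0.05. By limma, 14.6% of all genes tested were called higher and 15.1% lower in KO-1, and 8.73% and 8.19% in KO-2. One of the 5, KRT15, reached the level that the test required in its 2 KO-1 libraries alone (0.39 and 0.44 log2 CPM in KO-1 and -1.97 and -0.16 in KO-2, against -1.04 and -1.16 in control). The median log2 fold change for both guides of the 4 others was 0.51. Most of these genes had few reads. KRT80, a type II keratin, lay between 1.26 and 1.85 log2 CPM in the 4 knockout libraries, against 0.47 and 0.32 in the control libraries, on 30 to 58 reads, and rose by 1.08 (limma adjusted p = 0.0085). KRT17, a type I keratin of basal and stressed epithelium, rose by 0.86 (limma adjusted p = 0.037). In KO-2 alone KRT80 had 0.88 (limma adjusted p = 0.060) and KRT17 0.70 (0.16). KRT4 and KRT10 had log2 fold changes of -0.66 (limma adjusted p = 0.23) and 0.15 (0.29). Without control replicate 1 the adjusted p was 0.069 for KRT80 and 0.30 for KRT17, and without control replicate 2 it was 0.094 and 0.11. Without KO-1 replicate 1 or 2, that of KRT17 was 0.12 and 0.059.

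For the mean of both guides and in KO-1, CLDN1 had the largest estimate among the 6 genes that passed the test, while KRT19 and VIM had larger ones in KO-2. It stood at 6.08 and 6.25 log2 CPM in KO-1 and 5.92 and 5.94 in KO-2, against 5.55 and 5.55 in control. The 3 groups did not overlap one another, with KO-1 highest and control lowest. The means were 72.0 ± 5.93 CPM in KO-1 and 60.8 ± 0.571 CPM in KO-2, against 46.8 ± 0.0209 CPM in control (SD, n = 2 each). CLDN1 rose by 0.50 ± 0.07 on the log2 scale for both guides, a 1.41-fold increase (SE, limma adjusted p = 0.00056). The increase was 0.62 in KO-1 (limma adjusted p = 0.00036) and 0.38 in KO-2 (0.011), and the KO-2 call was lost without control replicate 1 (0.11) and without control replicate 2 (0.10).

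CLDN1 has a claudin gene as its close neighbour. In GENCODE v29 CLDN1 lies at chr3:190305701-190322475 on the minus strand and CLDN16, a claudin known from the kidney, at chr3:190322541-190412143 on the plus strand, so that both start from the ends of a stretch of 65 bases and share no exon bases. That stretch is shown because both genes rose. It is given from the RefSeq GRCh38.p14 sequence, chr3:190322476-190322540, on the strand of CLDN1, with GC boxes (GGGCGG on either strand) in capitals.
CLDN16 to CLDN1: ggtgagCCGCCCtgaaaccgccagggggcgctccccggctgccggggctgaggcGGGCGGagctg
It held 2 GC boxes and was 80% G or C. In the RefSeq window of 250 bases before the CLDN1 start, these boxes lie 88 and 40 bases upstream, and neither an E-box (CACCTG), an AP-1 site (TGANTCA) nor a TATA box (TATAAA) was found on either strand. Of 35116 RefSeq promoter windows of the same length, 42.6% held a GC box, 17.5% the E-box, 6.57% the AP-1 site and 10.7% the TATA box. CLDN16 stood at 2.50 and 2.19 log2 CPM in KO-1 and 2.23 and 2.42 in KO-2, against 1.17 and 1.42 in control, on 50 to 106 reads. It rose by 1.05 ± 0.20 on the log2 scale for both guides (SE, limma adjusted p = 0.0030), a 2.06-fold increase, and the adjusted p was 0.062 without control replicate 1.

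Of 28 other tight junction genes listed, 24 had a row and 22 were tested. For both guides 8 rose while 1 fell, where 14.6% of all genes tested were called higher and 14.9% lower. The median was 0.19, against -0.01 over all genes tested. Without CLDN7, which entered the test through its knockout libraries alone, the median was 0.17. CLDN12, a claudin, rose by 0.57 (limma adjusted p = 0.0020), PARD6B, a polarity adaptor, by 0.30 (0.0026) and F11R, the junctional adhesion molecule A, by 0.30 (0.011). The gene that fell, CGN, encodes the junction plaque protein cingulin and was chosen for naming after its values were seen. CGN stood at 2.09 and 2.55 log2 CPM in KO-1 and 2.57 and 2.46 in KO-2, against 3.16 and 2.98 in control, and fell by 0.65 (limma adjusted p = 0.018). In KO-1 6 rose and 1, CGN, fell, where 14.6% of all genes tested were called higher and 15.1% lower. In KO-2 3 rose and 1, CXADR, fell (-0.27, limma adjusted p = 0.031), where the shares were 8.73% and 8.19%. CGN (-0.56, limma adjusted p = 0.085) and F11R (0.25, 0.068) did not pass in KO-2. The call of CLDN12 was kept with each library left out. Without control replicate 1, control replicate 2 or KO-1 replicate 1 the adjusted p of CGN was 0.20, 0.092 and 0.056, that of F11R was 0.11 without either control library, and that of PARD6B was 0.060 without control replicate 2.

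EPCAM, abundant in all 6 libraries, stood at 8.27 and 8.30 log2 CPM in KO-1 and 8.29 and 8.31 in KO-2, against 8.17 and 8.03 in control. The 4 knockout libraries lay close together, and the 2 control libraries lay below them and further apart. The means were 313 ± 4.98 CPM in KO-1 and 314 ± 2.78 CPM in KO-2, against 274 ± 18.8 CPM in control (SD, n = 2 each). EPCAM rose by 0.20 ± 0.05 on the log2 scale for both guides (SE, limma adjusted p = 0.014), by 0.19 in KO-1 (0.029) and by 0.20 in KO-2 (0.037). This call rested on single libraries. Without control replicate 2 the log2 fold change was 0.13 and the adjusted p 0.26, and without KO-1 replicate 1 or 2 the adjusted p was 0.053 and 0.068. For each guide alone the call was likewise lost without control replicate 2 (0.31 in KO-1 and 0.36 in KO-2), without KO-1 replicate 1 (0.13 and 0.093) and without KO-1 replicate 2 (0.19 and 0.094), and in KO-2 without control replicate 1 (0.087).

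CDH1 stood at 5.41 and 5.13 log2 CPM in KO-1 and 5.35 and 5.21 in KO-2, against 4.84 and 5.11 in control. The groups did not overlap, but control replicate 2 lay just under KO-1 replicate 2. The means were 38.6 ± 5.27 CPM in KO-1 and 38.8 ± 2.74 CPM in KO-2, against 31.5 ± 4.18 CPM in control (SD, n = 2 each). The log2 fold change for both guides was 0.30 ± 0.11 (SE, limma adjusted p = 0.055), with a 95% interval from 0.07 to 0.53, and it did not pass the test in KO-1 (0.29, adjusted p = 0.097) or KO-2 (0.31, adjusted p = 0.11). The estimate rested on the control libraries, at 0.16 without control replicate 1 and 0.43 without control replicate 2 (limma adjusted p = 0.49 and 0.067). It passed without KO-2 replicate 1 (limma adjusted p = 0.029) and without KO-2 replicate 2 (0.0067).

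CDH2 stood at 4.61 and 4.41 log2 CPM in KO-1 and 4.68 and 4.59 in KO-2, against 4.41 and 4.43 in control. The means were 22.8 ± 2.22 CPM in KO-1 and 24.8 ± 1.20 CPM in KO-2, against 21.3 ± 0.189 CPM in control (SD, n = 2 each). Its log2 fold change for both guides was 0.15 ± 0.10 (SE, limma adjusted p = 0.26), with a 95% interval from -0.06 to 0.36 that covers the value of CDH1. Both cadherins were thus detected in every library, and neither passed the test in any of the 3 comparisons with control.

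Of 19 catenins, nectins and other cadherins listed, 16 were tested, and 5 rose while 3 fell for both guides (median -0.00), where 14.6% of all genes tested were called higher and 14.9% lower. PVR, a nectin-like receptor, rose by 0.25 (limma adjusted p = 0.0034) and JUP, plakoglobin, by 0.18 (0.0090), while NECTIN1 fell by 0.39 (0.0034). NECTIN4 had a log2 fold change of 2.14 (limma adjusted p = 0.0072) on 4 to 56 reads, which was 3.16 without control replicate 1 and 1.13 without control replicate 2. In KO-1 5 rose and 3 fell, where 14.6% of all genes tested were called higher and 15.1% lower. In KO-2 3 rose and 2 fell, where the shares were 8.73% and 8.19%. NECTIN4 did not pass in KO-2 (1.66, limma adjusted p = 0.064). With control replicate 1 left out, PVR, JUP and NECTIN1 lost their calls (limma adjusted p = 0.075, 0.10 and 0.059), as they did with control replicate 2 left out (0.053, 0.12 and 0.057), and so did NECTIN4 without control replicate 2 (0.087) and JUP without KO-1 replicate 1 (0.051).

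Desmosomes tie keratin filaments to the cell border, and hemidesmosomes tie them to the basement membrane. Of 15 genes of both listed, 13 were tested. For both guides 5 rose while 0 fell, where 14.6% of all genes tested were called higher and 14.9% lower. The median was 0.27, against -0.01 over all genes tested. At an unadjusted p under 0.05, 6 were higher and 0 lower, and limma voom called 5 and 0. PPL, the plakin periplakin, stood at 2.54 and 2.71 log2 CPM in KO-1 and 2.68 and 2.38 in KO-2, against 1.53 and 1.64 in control, and rose by 0.99 (limma adjusted p = 0.0024). PERP, a desmosomal membrane protein and known p53 target, rose by 0.34 (limma adjusted p = 0.0020), DSG2, a desmosomal cadherin, by 0.39 (0.0044) and DST, the plakin dystonin, by 0.59 (0.0049). In KO-1 5 rose and 1, ITGB4, fell. In KO-2 4 rose and 0 fell, where 1 was lower at an unadjusted p under 0.05 and limma voom called 1 lower. By limma, 14.6% of all genes tested were called higher and 15.1% lower in KO-1, and 8.73% and 8.19% in KO-2. PERP did not pass in KO-2 (0.20, limma adjusted p = 0.069). The call of PPL was kept with each library left out, while DSG2 (limma adjusted p = 0.082) and DST (0.097) lost theirs without control replicate 1 and PERP (0.053) without control replicate 2.

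The list around EPCAM held, among others, protease inhibitors of the epithelial surface and transcription factors of epithelia, and 16 of 22 were tested. For both guides 7 rose and 1 fell, where 14.6% of all genes tested were called higher and 14.9% lower. The median was 0.24, against -0.01 over all genes tested. SPINT2, an inhibitor of epithelial serine proteases, stood at 6.50 and 6.45 log2 CPM in KO-1 and 6.20 and 6.41 in KO-2, against 5.75 and 5.74 in control, and rose by 0.65 ± 0.07 (SE, limma adjusted p = 0.00014). The epithelial ETS factor EHF stood at 7.10 and 7.12 log2 CPM in KO-1 and 6.94 and 6.77 in KO-2, against 6.47 and 6.42 in control, and rose by 0.53 ± 0.06 (SE, limma adjusted p = 0.00019). ELF3, another epithelial ETS factor, rose by 0.43 (limma adjusted p = 0.0031) and KLF5 by 0.30 (0.0034). GRHL1, a grainyhead-like factor named after its values were seen, was the gene that fell, by 0.58 (limma adjusted p = 0.0060). In KO-1 7 rose and 2 fell, where 14.6% of all genes tested were called higher and 15.1% lower. In KO-2 4 rose and 1 fell, where the shares were 8.73% and 8.19%. The calls of SPINT2, EHF and KLF5 were kept with each library left out, ELF3 had an adjusted p of 0.062 without control replicate 2, and GRHL1 had 0.082 and 0.087 without control replicate 1 and without control replicate 2.

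**Figure D3:**
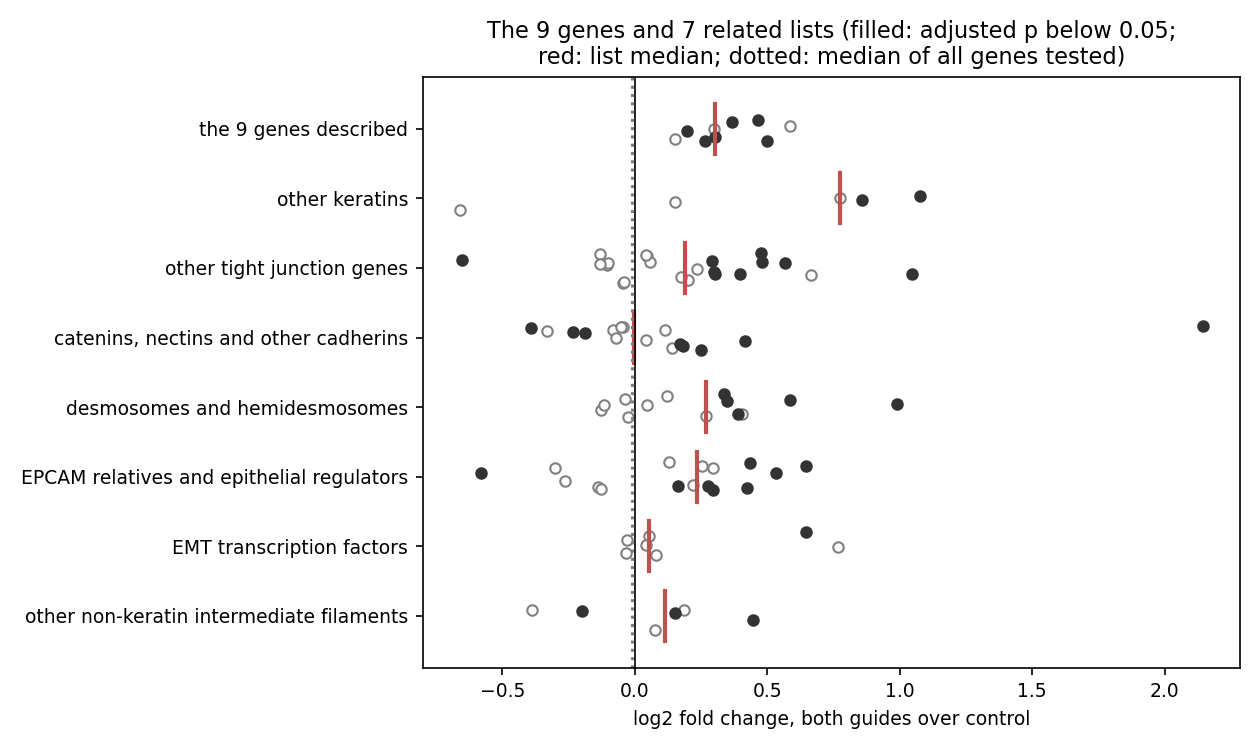
Log2 fold change for both guides over control of the 9 genes and of the tested genes of 7 related lists, each point 1 gene, filled where the adjusted p was below 0.05. Red bars are list medians and the dotted line is the median of all genes tested. The median of other keratins lies furthest right, at 0.77 as drawn. It is 0.51 without KRT15, which reached the level required for the test in KO-1 libraries alone. The medians of the 9 genes (0.30), of desmosomes and hemidesmosomes (0.27) and of the EPCAM list (0.24) also lie right of the dotted line. That of catenins, nectins and other cadherins (-0.00) lies on it.

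VIM stood at 6.51 and 6.63 log2 CPM in KO-1 and 6.74 and 6.56 in KO-2, against 6.29 and 6.20 in control. All 4 knockout libraries were above both control libraries, and KO-2 replicate 1 was the highest. The means were 95.1 ± 5.62 CPM in KO-1 and 100.4 ± 8.86 CPM in KO-2, against 75.8 ± 3.57 CPM in control (SD, n = 2 each). VIM rose by 0.37 ± 0.07 on the log2 scale for both guides, a 1.29-fold increase (SE, limma adjusted p = 0.0033), by 0.33 in KO-1 (0.012) and by 0.40 in KO-2 (0.0088). Without control replicate 2 the adjusted p was 0.070 for both guides, 0.12 in KO-1 and 0.10 in KO-2, without control replicate 1 it was 0.051 in KO-1 and 0.061 in KO-2, and without KO-1 replicate 2 it was 0.13 in KO-1. VIM lies at chr10:17228259-17237593 on the plus strand. The antisense genes VIM-AS1 and AL133415.1 share 641 and 619 bases of its exons, whose reads cannot be told apart without strand. Neither antisense gene had a row.

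The 250 bases before the RefSeq start of VIM, chr10:17227991-17228240 on the plus strand of GRCh38.p14, are shown for comparison with the CLDN1 stretch above, with the GC box in capitals.
VIM: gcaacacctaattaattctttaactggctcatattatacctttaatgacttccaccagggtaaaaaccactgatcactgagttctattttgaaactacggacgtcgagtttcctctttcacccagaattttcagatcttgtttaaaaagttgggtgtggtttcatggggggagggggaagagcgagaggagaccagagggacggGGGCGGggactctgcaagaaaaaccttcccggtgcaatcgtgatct
It held 1 GC box, 46 bases upstream of the start, and none of the E-box, the AP-1 site or the TATA box. Promoter windows were matched for KRT8, CLDN1, CDH2 and VIM, 4 of the 9 genes. The window of KRT8, which also rose, held 0 matches to any of the motifs. That window, chr12:52926470-52926719 on the minus strand, lies inside the GENCODE span of KRT8 (chr12:52897187-52949954). The bases before any other start of KRT8 were not searched. Of the windows of CDH2, which did not pass the test, one held 1 GC box and the other 1 AP-1 site and 1 TATA box.

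Of 11 transcription factors listed that drive the epithelial-mesenchymal transition, 7 were tested, and 1 rose while 0 fell for both guides (median 0.05), a share near the 14.6% of all genes tested that were called higher. The counts were the same with limma voom and at an unadjusted p under 0.05. ZEB2, a repressor of CDH1, stood at 2.09 and 1.88 log2 CPM in KO-1 and 1.86 and 1.95 in KO-2, against 1.05 and 1.55 in control, on 46 to 76 reads. It rose by 0.64 (limma adjusted p = 0.049), or 0.39 without control replicate 1, and its adjusted p with 1 library left out was 0.43 (control replicate 1), 0.080 (control replicate 2), 0.13 (KO-1 replicate 1) and 0.084 (KO-1 replicate 2). Its call was also lost with no filter (0.0503), no mean-variance trend (0.059), the replicate block (0.060) and the knockout libraries as 1 group (0.060). ZEB1, its paralog, had a log2 fold change of 0.05 (limma adjusted p = 0.59), FOXC1 had 0.04 (0.66) and SNAI2 had 0.77 (0.20) on 12 to 22 reads. SNAI2, like KRT7, reached the level required for the test in knockout libraries alone. For each guide alone, 0 of the 7 were called by limma or by limma voom, and 1 was higher at an unadjusted p under 0.05. By limma, 29.7% of all genes tested were called in KO-1 and 16.9% in KO-2.

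Of 12 other non-keratin intermediate filament genes listed, 6 were tested. For both guides 2 rose while 1 fell (median 0.11), where 14.6% of all genes tested were called higher and 14.9% lower. LMNA, which encodes the A-type lamins of the nuclear envelope, stood at 9.46 and 9.42 log2 CPM in KO-1 and 9.34 and 9.41 in KO-2, against 8.94 and 8.97 in control. It rose by 0.45 ± 0.04 (SE, limma adjusted p = 4.2e-05), and its call was kept with each library left out. Of the B-type lamins, LMNB1 rose by 0.15 (limma adjusted p = 0.032) and LMNB2 fell by 0.20 (0.0097). LMNB1 did not pass in KO-1 (0.09, limma adjusted p = 0.23), nor LMNB2 in KO-2 (-0.13, 0.13). NES, which encodes nestin, had a log2 fold change of -0.39 (limma adjusted p = 0.079) and passed without KO-2 replicate 2 (0.041). With control replicate 1, control replicate 2 or KO-1 replicate 2 left out, the adjusted p of LMNB1 was 0.24, 0.19 and 0.091 and that of LMNB2 was 0.11, 0.10 and 0.058, and LMNB1 had 0.12 with KO-1 replicate 1 left out.

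Over all 7 lists, 85 of 123 genes were tested. For both guides 30 rose while 6 fell, in KO-1 26 rose while 9 fell, and in KO-2 16 rose while 4 fell. Of all genes tested, 14.6% were called higher and 14.9% lower for both guides. The shares were 14.6% and 15.1% in KO-1, and 8.73% and 8.19% in KO-2. The median log2 fold change of the list genes for both guides was 0.15. It includes KRT15, CLDN7 and SNAI2, which entered the test through knockout libraries alone, and it was not computed without them. Of the 36 genes called for both guides, 11 were still called without control replicate 1 and 10 without control replicate 2, while 36 were called without either KO-2 library. Over all genes tested the share called was 9.34% and 11% without those control libraries, against 29.6% with all 6 libraries.

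Ratios between genes within a library do not depend on how libraries are scaled to each other. The KRT8 to KRT18 ratio, the balance of the keratin pair, stood at 1.00 and 1.01 in KO-1 and 0.75 and 1.00 in KO-2, against 0.98 and 0.98 in control, on the log2 scale. Only KO-2 replicate 1 stood apart, and the mean difference was -0.04 (two-sided exact permutation test of 4 against 2 libraries, p = 0.80). It was 0.03 without KO-2 replicate 1 and -0.10 without KO-2 replicate 2. With 4 against 2 libraries the smallest p that this exact test can give is 0.13. The KRT19 to KRT18 ratio stood at -0.22 and -0.27 in KO-1 and -0.15 and -0.14 in KO-2, against -0.36 and -0.36 in control. KRT19 was therefore higher relative to KRT18 in all 4 knockout libraries, with a difference of 0.16 (exact permutation p = 0.13, two-sided).

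The next 3 ratios set epithelial genes against mesenchymal ones. The EPCAM to VIM ratio stood at 1.76 and 1.67 in KO-1 and 1.55 and 1.75 in KO-2, against 1.87 and 1.83 in control, on the log2 scale. It was lower in all 4 knockout libraries, by 0.17 on average (exact permutation p = 0.13, two-sided). The CDH1 to CDH2 ratio stood at 0.79 and 0.71 in KO-1 and 0.67 and 0.62 in KO-2, against 0.43 and 0.68 in control, a difference of 0.15 with overlapping groups (exact permutation p = 0.40, two-sided). It was 0.02 without control replicate 1 and 0.27 without control replicate 2. The ratio of KRT8, KRT18 and KRT19 summed to VIM stood at 4.35 and 4.23 in KO-1 and 4.11 and 4.27 in KO-2, against 4.21 and 4.36 in control, which overlapped, with a difference of -0.04 (exact permutation p = 0.80, two-sided). It was -0.12 without control replicate 1 and 0.03 without control replicate 2.

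**Figure D4:**
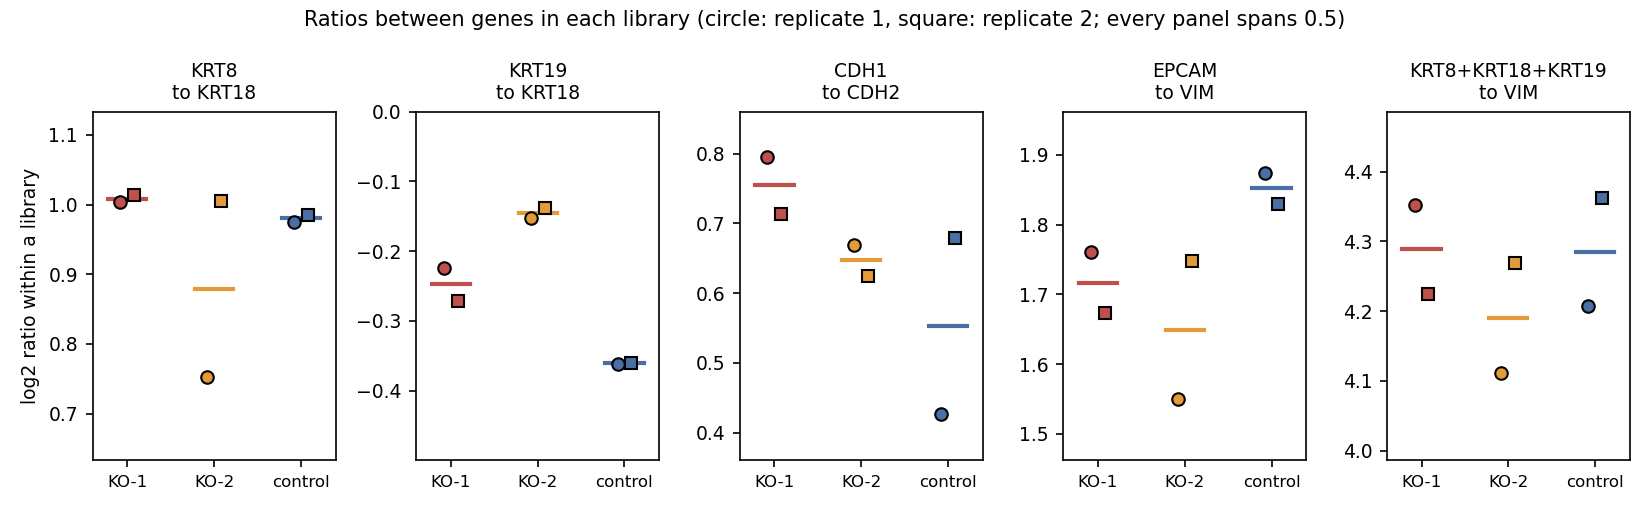
Log2 ratio between 2 genes, or between 3 summed keratins and VIM, within each library, with replicate 1 as a circle, replicate 2 as a square and the group mean as a line. Every panel spans 0.5 log2 units. KRT19 to KRT18 is higher and EPCAM to VIM lower in the 4 knockout libraries than in both control libraries, and the other 3 ratios overlap.

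Whether the guides differed from each other was tested as KO-2 against KO-1, and this called 0 of the 9 genes, where it called 1.14% of all genes tested, 0.334% higher and 0.806% lower. With limma voom and in the authors' deposited table the count was also 0, and 2 genes, KRT8 and CLDN1, had an unadjusted p under 0.05. CLDN1 was lower in KO-2 than in KO-1 by a log2 fold change of -0.24 ± 0.08 (SE, limma adjusted p = 0.17), with a 95% interval from -0.42 to -0.06. KRT8 had -0.11 (limma adjusted p = 0.28) and KRT19 had 0.12 (0.31), in opposite directions. The libraries of the 2 guides did not overlap for KRT8, KRT7 and CLDN1, lower in KO-2 (21.9% of all genes tested), and for KRT19, higher in KO-2 (22.3%). Without KO-2 replicate 2, KRT8 (-0.16, limma adjusted p = 0.0074) and CLDN1 (-0.25, 0.034) were called lower and KRT19 (0.19, 0.0071) higher, in a fit where KO-2 was 1 library assumed to vary like the other groups, and 23.1% of all genes were called. For KRT18, EPCAM, CDH1 and VIM the differences between the guides were 0.02, 0.01, 0.01 and 0.08, and their 95% intervals reached from -0.26 to 0.28 for CDH1, the widest of the 4.

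Levels can be compared between genes only per length. Per kilobase of the principal transcript, KRT8 had 456 CPM in KO-1 and 423 in KO-2, against 366 in control. KRT18 had 309 in KO-1 and 313 in KO-2, against 252 in control, and KRT19 had 292 in KO-1 and 318 in KO-2, against 221 in control. EPCAM followed with 181 in KO-1 and 182 in KO-2, against 159 in control. The filament gene VIM lay several-fold below KRT8, KRT18 and KRT19, with 44.5 CPM per kilobase in KO-1 and 47.0 in KO-2, against 35.5 in control. CLDN1 had 20.7 in KO-1 and 17.5 in KO-2, against 13.4 in control. The cadherins were lower still: CDH1 had 7.90 in KO-1 and 7.95 in KO-2, against 6.44 in control, and CDH2 had 5.26 in KO-1 and 5.72 in KO-2, against 4.93 in control. KRT7 had the lowest level, 0.814 in KO-1 and 0.638 in KO-2, against 0.460 in control. The order of the 3 abundant keratins depended on the length used. With all annotated exons merged, KRT19 came first, with 174 CPM per kilobase in KO-1 and 189 in KO-2, against 131 in control, and KRT8 came after KRT18, with 141 in KO-1 and 131 in KO-2, against 113 in control. EPCAM was 4th, CDH1 7th, CDH2 8th and KRT7 9th with both lengths. With merged exons VIM came after CLDN1 in KO-1, at 18.4 and 19.6 CPM per kilobase with overlapping ranges, but before it in KO-2 and control. Over the principal transcript the ranges of KRT18 and KRT19 overlapped in KO-2, so the order of that pair does not hold beyond their spread there.

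In the authors' deposited table, a total of 6 of the 9 genes had a false discovery rate below 0.05 in KO-1 against control and 6 in KO-2 against control, where 29% and 16.7% of its 14788 genes did. KRT19 had log2 fold changes of 0.41 in KO-1 and 0.53 in KO-2 in the authors' deposited table, with false discovery rates of 0.00023 and 0.0001. CDH1 had 0.29 and 0.30 in the authors' deposited table, with false discovery rates of 0.088 and 0.11. KRT7, at 0.82 in KO-1 in the authors' deposited table (false discovery rate 0.16), was the gene whose estimate differed most from the limma value of 0.75.

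With each library left out in turn, the calls for both guides against control fell into 2 kinds. KRT8, KRT18, KRT19 and CLDN1 were called in all 6 such fits. EPCAM and VIM lost their call in the fits given above, and CDH1 gained one without either KO-2 library. The adjusted p-values of the 6 called genes were lower without either KO-2 library than with all 6 libraries, and 42.8% and 44.3% of all genes were called in those fits.

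**Figure D5:**
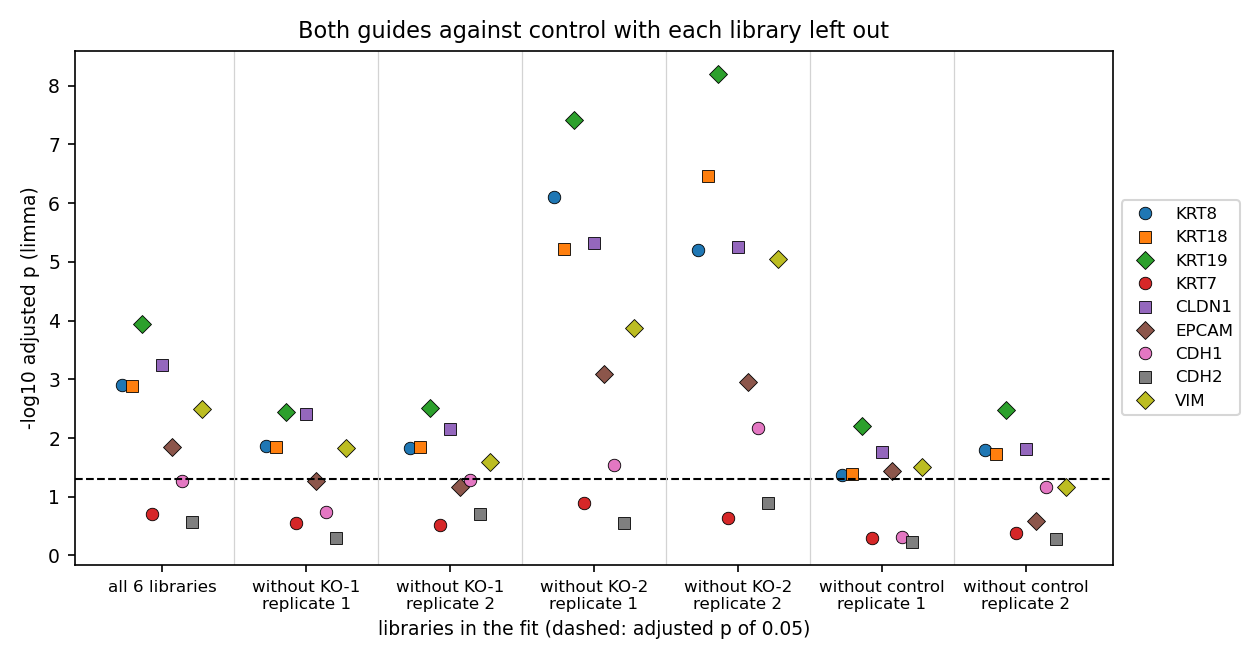
Adjusted p from limma, as -log10, of each gene for both guides against control with all 6 libraries and with each library left out in turn, the dashed line at an adjusted p of 0.05. KRT8, KRT18, KRT19 and CLDN1 stay above the line in every fit. EPCAM and VIM fall below it without control replicate 2, and EPCAM also does without either KO-1 library. CDH1 rises above it without either KO-2 library.

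The genes whose log2 CPM over the 6 libraries was most like that of 3 of the genes are given as a description, over libraries that share group and depth. For KRT19 they were PLAAT4 (Pearson r = 0.997 over 6 libraries) and SNRPA1 (0.996), for CLDN1 OSER1 (0.998) and SDC4 (0.997), and for KRT8 MRFAP1L1 (0.998) and MEIOC (0.997). With 6 libraries such values are common: 267, 416 and 422 of the 12129 genes compared had an r above 0.95 with KRT19, CLDN1 and KRT8. Among the 9 genes themselves r lay between 0.27 for KRT7 with CDH2 and 0.99 for KRT7 with KRT8.

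CAL51 was labelled as triple-negative breast cancer. KRT8, KRT18 and KRT19 were abundant in every library. ERBB2 stood at 163 and 164 CPM in KO-1 and 177 and 188 in KO-2, against 194 and 199 in control. It fell for both guides (-0.19, limma adjusted p = 0.017) and in KO-1 (-0.26, 0.0059), but did not pass in KO-2 (-0.11, 0.23). ESR1 and PGR had no row and were not analysed here. For leukocytes 2 of 4 markers had a row, PTPRC and CD14, and their summed level was 19.1 to 20.9 CPM in KO-1 and 16.5 to 16.6 in KO-2, against 15.5 to 16.8 in control. For endothelium 3 of 3 had a row and summed to 18.6 to 19.7 CPM in KO-1 and 18.3 to 19.6 in KO-2, against 21.4 to 23.2 in control. Of them, CDH5 fell for the mean of both guides (-0.40, limma adjusted p = 0.030) and in KO-2 (-0.48, 0.038), but did not pass in KO-1 (-0.31, 0.12). For the mean of both guides PECAM1 had 0.06 (0.88) and VWF 0.09 (0.75). For fibroblasts 3 of 4 had a row and summed to 336 to 347 CPM in KO-1 and 301 to 303 in KO-2, against 322 to 328 in control. Of them, COL1A1 rose for both guides (0.63, limma adjusted p = 0.0039), while COL3A1 had -0.05 (0.42) and PDGFRB -0.18 (0.10), and COL3A1 fell in KO-2 (-0.17, limma adjusted p = 0.044). With control replicate 1 left out the adjusted p was 0.33 for CDH5 and 0.086 for COL1A1, and that of CDH5 was 0.094 with control replicate 2 left out and 0.096 with KO-1 replicate 2 left out. None of these markers was at 0 reads in any library, and neither of the 2 red cell markers had a row. The part of these levels in the changes of the 9 genes was not tested.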

How the data were processed

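The 6 bulk libraries were grouped by their titles. The submitters' processing notes list edgeR, fastp, STAR (version 2.7) and Subread's featureCounts (version 2.0) and the hg38 human build, and state neither the annotation nor the strand setting. The authors deposited expression as log2 CPM, and a second deposited table holds the authors' log2 fold changes, p-values and false discovery rates.

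Subtracting a prior of 0.102 CPM from the deposited values gave whole reads for 100% of them at a tolerance of 0.01 reads, which gives each library's depth. By counting error alone, 0 reads allow up to 3, which is 0.115 to 0.230 CPM depending on the library. Genes at a log2 CPM of 0 or more in at least 2 libraries were tested (13765, with 1023 left out). A group-means model was fitted to the deposited values with limma (version 3.58.1, R 4.3.3), with a mean-variance trend, 3 residual and 8.02 prior degrees of freedom, and p-values were adjusted by Benjamini-Hochberg over all genes tested. The scripts were tested on simulated data. Fold changes are on the log2 scale of CPM plus the prior, which understates low genes, and their errors are limma standard errors. Coordinates and exon lengths are from GENCODE v29, and sequences from RefSeq.

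The 9 genes, the 7 related lists and the tests were chosen with earlier results of these data known. From each list up to 4 genes with the smallest p for both guides were named, and for the 3 of the 9 genes with the smallest p the 2 most alike by Pearson r. Alternatives changed the filter, trend, scaling, pseudocount, replicate block and libraries. Another 2, limma voom on recovered reads and reads thinned to the shallowest library, were chosen after seeing the data. Replicate numbers did not pair the libraries: replicate differences correlated at -0.05 for KO-1 with control, 0.04 for KO-2 with control and -0.04 for KO-2 with KO-1.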

Additional observations from a re-analysis of the deposited data

Results flagged for a closer look

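Among the genes of the related lists, the difference between the guides passed the test for 2, both subunits of the integrin that anchors hemidesmosomes, and they were named after their values were seen. ITGA6 stood at 7.76 and 7.67 log2 CPM in KO-1 and 7.46 and 7.19 in KO-2, against 7.53 and 7.58 in control. Its log2 fold change was 0.16 in KO-1 (limma adjusted p = 0.16) and -0.23 in KO-2 (0.074), and that of KO-2 over KO-1 was -0.39 (limma adjusted p = 0.047). ITGB4 stood at 6.04 and 6.02 log2 CPM in KO-1 and 6.51 and 6.51 in KO-2, against 6.31 and 6.46 in control. Its log2 fold change was -0.36 in KO-1 (limma adjusted p = 0.0043) and 0.13 in KO-2 (0.27), and that of KO-2 over KO-1 was 0.48 (limma adjusted p = 0.014). The 2 subunits therefore differed between the guides in opposite directions, where 1.14% of all genes tested were called. Both calls were lost with KO-1 replicate 1 left out (limma adjusted p = 0.45 for ITGA6 and 0.32 for ITGB4) and with KO-1 replicate 2 left out (0.42 for ITGA6 and 0.33 for ITGB4), fits in which 0 genes in all were called. That of ITGA6 was also lost without either control library (limma adjusted p = 0.12 each).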

How the results depend on the processing

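For both guides, 6 of the 9 genes were called higher in the fit as reported and 4 to 7 under the 16 alternatives, with 0 called lower in any of them, and KRT18, KRT19 and CLDN1 were called in all 16. Among the 9 genes and the list genes named, no called value changed sign. Without a mean-variance trend the lists held 18 genes called higher and 3 lower for both guides, 5 lower in KO-1, 0 higher and 0 lower in KO-2, and 0 in either direction for KO-2 against KO-1. Over all genes tested that fit called 16% for both guides, 17% in KO-1, 1.18% in KO-2 and 0.00726% for KO-2 against KO-1. In that fit KRT8 (limma adjusted p = 0.051) and EPCAM (0.10) lost their call for both guides, KRT7, which entered the test through its knockout libraries alone, passed for both guides (0.031) and in KO-1 (0.025), KRT18 (0.067), EPCAM (0.15) and VIM (0.081) lost their KO-1 calls, and 0 of 9 were called in KO-2. Quantile normalization ended the call of EPCAM for both guides (0.073 by limma), in KO-1 (0.14) and in KO-2 (0.12) and of KRT8 in KO-2 (0.065), and CDH1 was called with library medians set equal (0.030), quantile normalization (0.036) and voom (0.047). In KO-2 the lists held 1 gene called lower with library medians set equal. For KO-2 against KO-1 they held 0 lower when genes had to average a log2 CPM of 2.

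With the replicate number as a block, which does not pair the libraries, the counts among the 9 genes were 6 for both guides, 6 in KO-1 and 5 in KO-2, where EPCAM lost its call (limma adjusted p = 0.054). The replicate block left 2 list genes lower in KO-2 and 0 lower in KO-2 against KO-1.

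With each library left out in turn, the 9 genes held 1 to 7 called higher in KO-2, and 0 to 1 higher and 0 to 2 lower for KO-2 against KO-1. The lists held 10 to 36 higher and 0 to 9 lower for both guides, 12 to 32 higher and 2 to 11 lower in KO-1, 4 to 23 higher and 0 to 8 lower in KO-2, and 0 to 7 higher and 0 to 10 lower for KO-2 against KO-1. The CDH1 to CDH2 log2 ratio, knockout minus control, was 0.021 to 0.27. Over all genes, 4068 were called for both guides, 2201 without the trend and 1277 to 6064 with a library left out. Among the 9 genes, depth limits KRT7 most, on 13 to 27 reads. The cause of these changes was not tested.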
